A study of Mus musculus with 6 samples.

Results

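A set of 6 genes that the transcription factor NRF2 can switch on were followed across 6 mouse arrays: Gclc, Osgin1, Srxn1, Txnrd1, Nqo1 and Hmox1. They were chosen by name, with earlier results of these data known, and found through the gene symbols of the platform annotation. Counts of members set beside shares of all genes are therefore a description and not a test. All 6 genes were present, of 16675 symbols in all. They were read by 8 probes of the 29922 on the array. Srxn1 had 3 probes, numbered here from the brightest to the dimmest, and the 5 other genes had 1 each. The mice were leptin-deficient, obese ob/ob animals of the strain B6.V-Lepob/J, and every group carried this mutation. After a fast of 4 h they were given by mouth either PBS, the control, or MCSE, an aqueous extract of seeds of Momordica charantia (bitter melon). An intraperitoneal glucose load of 1 g/kg followed 15 min later, and muscle, liver and adipose tissue were taken 4 h after the glucose. Each of the 6 combinations of tissue and treatment had 1 array, so the MCSE differences rest on single arrays, without replicates, and carry no p-value. The labels used here gave neither the age of the mice nor how many mice stood behind an array.

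NRF2, encoded by Nfe2l2, is held in the cytoplasm and marked for destruction by KEAP1 with the CUL3 ubiquitin ligase. Oxidants and electrophiles modify KEAP1, NRF2 then builds up, enters the nucleus, pairs with a small MAF protein and binds antioxidant response elements, while BACH1 competes for these sites. Among its targets, Gclc encodes the catalytic subunit of the enzyme that limits glutathione synthesis. Srxn1 encodes sulfiredoxin, which repairs over-oxidised peroxiredoxins, and Txnrd1 the cytosolic thioredoxin reductase. Nqo1 encodes a quinone reductase, Hmox1 the inducible haem oxygenase, and Osgin1 an oxidative stress-induced growth inhibitor. Several of these genes also answer to other signals, as Hmox1 does to haem and Nqo1 to the aryl hydrocarbon receptor.

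Sequences that match the core of the response element can be read in the promoters of some of these genes. RefSeq promoter windows of build GRCm38.p6, which run from 250 bases before to 50 bases after a transcription start, were matched for Osgin1, Srxn1, Txnrd1 and Nqo1. Their build bears on the sequences only, since the arrays came with no coordinates. The windows were searched on both strands for TGACNNNGC and TGAGNNNGC, the 2 common forms of the core element. At least 1 match was present in 27.8% of all 32851 windows, so a match alone is not rare. The windows of Osgin1 and Srxn1 are shown up to the start because these genes were among those higher with MCSE, in different tissue labels. Capitals mark the matches.

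Osgin1, chr8:119436897-119437146, plus strand: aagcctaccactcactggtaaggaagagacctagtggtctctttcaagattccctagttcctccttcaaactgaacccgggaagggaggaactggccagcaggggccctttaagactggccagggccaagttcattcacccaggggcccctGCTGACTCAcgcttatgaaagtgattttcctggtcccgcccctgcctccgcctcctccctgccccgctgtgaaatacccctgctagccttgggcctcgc
Srxn1, chr2:152105274-152105523, plus strand: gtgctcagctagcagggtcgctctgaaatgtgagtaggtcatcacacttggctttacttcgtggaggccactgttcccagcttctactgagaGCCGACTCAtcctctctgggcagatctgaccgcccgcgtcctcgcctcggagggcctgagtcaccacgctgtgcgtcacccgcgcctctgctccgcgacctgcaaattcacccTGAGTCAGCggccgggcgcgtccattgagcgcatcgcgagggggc

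The Osgin1 start used here lies inside its gene record, chr8:119425882-119446257. Osgin1 held 1 match, TGAGTCAGC on the minus strand, 99 to 91 bases before this start. The same 9 letters stood in Srxn1 on the plus strand, 45 to 37 bases before the start. This exact sequence, singled out after it was seen in both windows, occurred on either strand in 0.414% of all windows. Srxn1 had 2 further matches, TGAGTCGGC on the minus strand 158 to 150 bases before the start, and TGACCTAGC on the minus strand 29 to 37 bases after it, beyond the stretch shown. Windows with 3 or more matches made up 0.63% of all. Txnrd1 had 3 windows, for 3 starts, and 1 of them held a match, TGACAAAGC on the minus strand 92 to 84 bases before that start. The window of Nqo1 held 0 matches. These are matches of letters, and no binding was measured.

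The tissue labels limited how far each array could be read as a tissue. The muscle arrays carried muscle genes, with a median log2 intensity of 15.91 and 15.85 for 8 fast-fibre markers against 9.04 and 9.11 on the arrays labelled liver. They also carried adipocyte genes, with a median of 12.86 and 12.91 for 6 markers, against 14.81 and 15.12 on the liver arrays. Alb lay at 12.35 with PBS and 10.44 with MCSE in muscle, and Kap at 9.61 and 12.81. The liver arrays carried hepatocyte genes (Alb at 15.79 and 15.36), adipocyte genes (Lep at 15.04 and 15.93) and kidney genes (Kap at 16.07 and 16.05) together. In the fit of tissue labels described below, 5 of 8 hepatocyte, 5 of 6 adipocyte and 10 of 10 kidney markers were called higher in liver. The share of all probes was 15.3%. Hepatocyte markers that were not called included Ahsg, at 10.10 and 10.27 against 9.88 and 10.30 in muscle. "Liver" therefore names a label here. The array labelled MCSE adipose was close to the one labelled MCSE liver (Pearson r = 0.982 over all probes). The array labelled PBS adipose correlated at 0.312 to 0.521 with the others. This pair is therefore described by level and kept out of the main comparisons, and its differences appear only among the flagged results. RNA from whole tissue does not separate fewer cells of a type from less RNA per cell.

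Levels are log2 intensities with a lower limit of 7.74, the 5th percentile of all values, and a gene counted as measured in a pair of arrays when at least 1 of the 2 reached the median of all probes, 8.95. By this rule all 6 genes passed on the liver pair and 5 on the muscle pair, where Gclc fell short. Intensities of different probes are not comparable as amounts of RNA, so each probe is followed across arrays only.

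**Figure D1:**
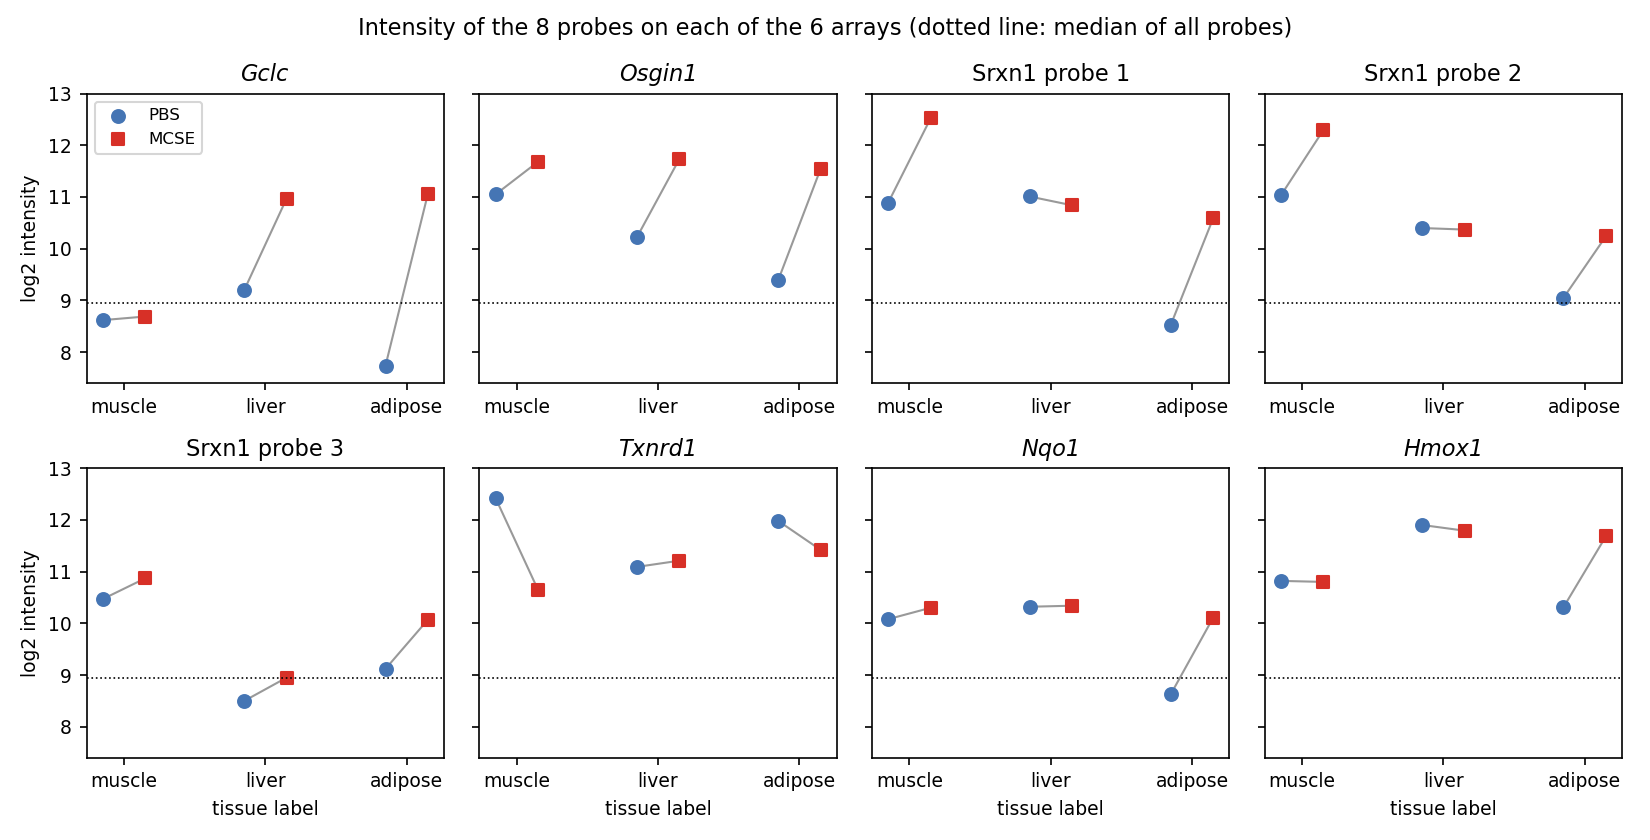
Log2 intensity (y axis) of each of the 8 probes on the 6 arrays, by tissue label (x axis). Circles are PBS and squares MCSE, 1 array each, joined by a line, and the dotted line is the median of all probes (8.95). Srxn1 probes 1 and 2 were higher with MCSE on the muscle arrays and level on the liver arrays, Txnrd1 was lower with MCSE in muscle, and Gclc and Osgin1 were higher with MCSE on the liver arrays.

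On the muscle arrays, Srxn1 was higher and Txnrd1 lower with MCSE, and the other members differed by less than 2-fold. Of the 5 measured genes, 1 was at least 2-fold higher and 1 at least 2-fold lower, where 3.9% and 1.88% of all 10711 measured genes were. By probe, 2 of 7 were higher and 1 was lower, against 3.92% and 2.02% of 12497 measured probes with a gene symbol. The median difference of these 5 genes (log2 MCSE minus PBS) was 0.22, against -0.05 over all measured genes. The members thus did not shift together in muscle.

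Srxn1, the sulfiredoxin gene, was read at 10.89 with PBS and 12.52 with MCSE by probe 1, a 3.11-fold difference or 1.64 on the log2 scale. Probe 2 gave 11.03 and 12.29, a difference of 1.26. Probe 3 gave 10.47 and 10.87, a difference of 0.39. All 3 probes were higher with MCSE, but by unequal amounts, and probe 3 was short of 2-fold. As a gauge of disagreement between probes, genes with 2 measured probes were used. Across 1504 of them the paired differences gave an SD per probe of 0.517 in the muscle pair. This figure holds no variation between mice, and no error that both probes of a gene share on an array. Probes 1 and 2 lay beyond this SD and probe 3 within it. Of the 10711 measured genes, 109 had a larger positive difference than probe 1.

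Txnrd1, the thioredoxin reductase that keeps thioredoxin reduced, went the other way. Its probe read 12.42 with PBS and 10.65 with MCSE, a difference of -1.77, or 3.41-fold lower with MCSE. Only 39 measured genes had a more negative difference. The PBS muscle array was the highest of the 6 arrays for this probe, followed by PBS adipose at 11.98, MCSE adipose at 11.42, and the liver arrays at 11.09 (PBS) and 11.21 (MCSE). The MCSE muscle array was the lowest. Txnrd1 has several starts and transcript forms, and with 1 probe it was not tested whether they differed alike.

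Osgin1 lay at 11.05 with PBS and 11.68 with MCSE in muscle, a difference of 0.64 that exceeded the SD per probe and was short of 2-fold. Nqo1 read 10.08 and 10.30, a difference of 0.22, and Hmox1 10.82 and 10.80, a difference of -0.02. Both were within the SD per probe. Gclc read 8.62 and 8.69, a difference of 0.07, under the 8.95 mark on each muscle array. A fall had little room there above the lower limit of 7.74, while a rise was not limited in this way. In the same pair the kidney markers were higher too, with 2 of 6 measured genes at least 2-fold higher and a summed intensity over 10 markers of 4817 with PBS and 12770 with MCSE, 2 of the 10 being at the lower limit on the PBS array. Slow-fibre and cardiac markers moved more in this pair, and 4 of 7 passed 2-fold upwards and 0 downwards. Their median difference was 1.21, and their summed intensity was 93215 with PBS and 207877 with MCSE. Myh7, the slow myosin heavy chain, lay at 11.92 and 15.46, and none of the 7 was at the lower limit on either array (0). The part of these shifts in the differences of Srxn1, Txnrd1 and the other members was not tested.

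On the arrays labelled liver, Gclc and Osgin1 were higher with MCSE and for the 4 others the brightest probe stayed within the SD per probe, which was 0.611 here (1653 genes). The count of at least 2-fold higher was 2 of 6, where 8.27% of 11342 measured genes were, and 0 of 6 were 2-fold lower, where 6.01% of all were. By probe, 2 of 8 were higher and 0 lower, against 8.11% and 5.7% of 13297 measured probes with a gene symbol. The median difference of the 6 genes was 0.07, against -0.02 over all measured genes.

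Gclc, the catalytic subunit for glutathione synthesis, lay at 9.20 with PBS and 10.97 with MCSE, a 3.40-fold difference or 1.77 on the log2 scale. The PBS liver array was near the median of all probes and only 0.58 above the PBS muscle array, while the MCSE liver array was 2.28 above the MCSE muscle array. The MCSE adipose array read 11.06, 0.09 from the MCSE liver array. A larger positive difference was found for 209 of the 11342 measured genes.

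Osgin1 lay at 10.22 with PBS and 11.73 with MCSE, a 2.86-fold difference or 1.51 on the log2 scale. The MCSE liver value was close to the MCSE muscle (11.68) and MCSE adipose (11.54) values, and the PBS liver value was 0.83 below the PBS muscle value. The 3 arrays labelled MCSE were thus the 3 highest for Osgin1, and the 3 labelled PBS the 3 lowest. However, 2 of the MCSE arrays were nearly alike, and the share of all genes that separate in this way was not counted. The lowest value, 9.39, came from the PBS adipose array, which correlated at 0.312 to 0.521 with the others. Proteasome genes, which every cell uses, were low on that array too, at a median of 8.92 against 12.83 on the MCSE adipose array. Osgin1 was the only member whose difference exceeded the SD per probe in the same direction in both the muscle and the liver pair. In muscle, 900 of the 10711 measured genes had a larger positive difference, and the share of all genes past the SD in both pairs was not counted.

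Kidney markers moved with the Gclc and Osgin1 differences of the liver pair. Past 2-fold, 6 of 10 markers were higher with MCSE and 0 were lower. Their median difference was 1.21, and their summed intensity was 108992 with PBS and 168313 with MCSE. Umod, of the thick ascending limb, lay at 12.47 and 14.27, and none of the 10 was at the lower limit on either array (0). Slow-fibre and cardiac markers moved the opposite way, from a summed intensity of 19021 to 3548. The 8 hepatocyte markers had a median difference of -0.03. The part of these shifts in the differences of Gclc and Osgin1 was not tested.

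Srxn1, which differed most among the members that were higher in muscle, was level on the liver arrays. Probe 1 read 11.01 and 10.84, a difference of -0.17, and probe 2 read 10.40 and 10.37, a difference of -0.02. Probe 3 read 8.50 and 8.95, a difference of 0.45 at or below the median of all probes. Txnrd1 differed by 0.13 and Nqo1 by 0.02.

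Hmox1 and Nqo1, members commonly used as readouts of NRF2 activity, differed little with MCSE in either pair. Hmox1 lay at 11.90 with PBS and 11.79 with MCSE in the liver pair, a difference of -0.11. Hmox1 is rich in macrophages that clear red cells, and 11 macrophage markers gave a median difference of -0.12 on the liver pair (1 higher, 1 lower of 11 measured) and 0.20 on the muscle pair (0 of 10 past 2-fold). For Nqo1, the 4 muscle and liver arrays spanned 10.08 to 10.34. Differences of this size are smaller than the SD per probe, which does not show that the transcripts were equal.

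**Figure D2:**
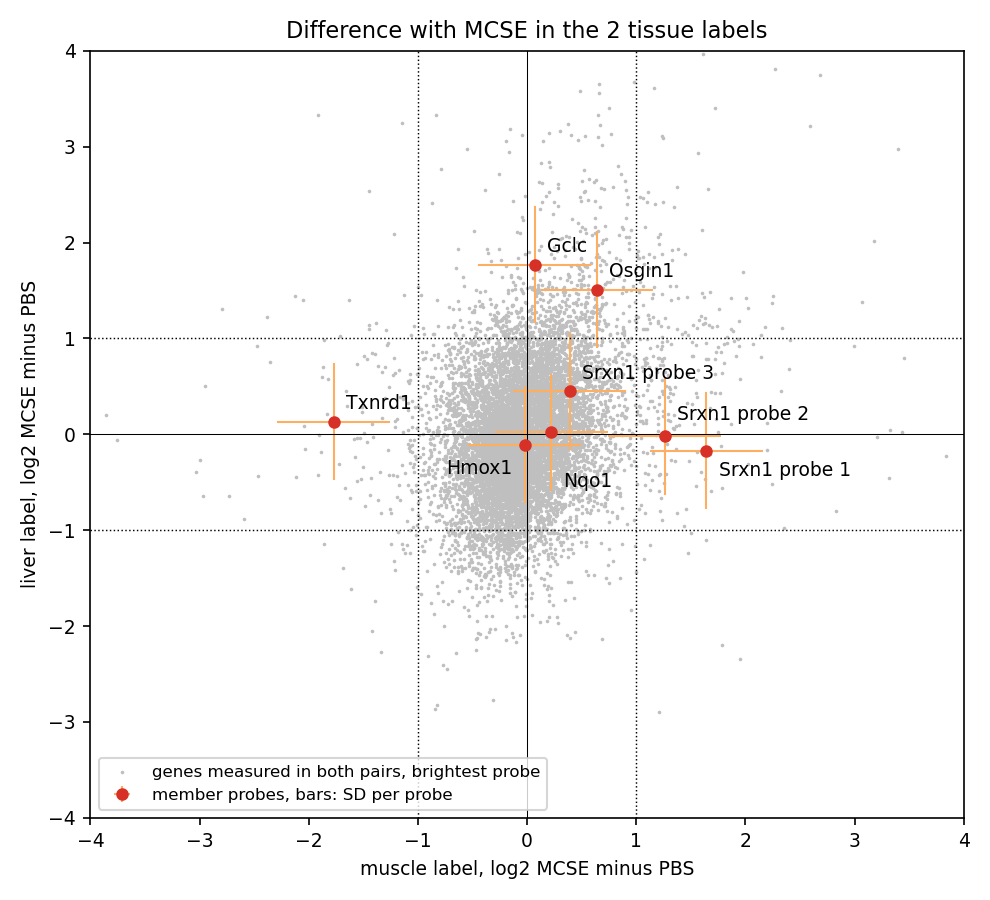
Log2 MCSE minus PBS in the muscle pair (x axis) and the liver pair (y axis). Grey points are the 9578 genes measured in both pairs, of which 14 lie outside the plotted range, red points the 8 member probes with the SD per probe as bars (0.517 and 0.611), and dotted lines mark 2-fold. Srxn1 probes 1 and 2 lie to the right, Txnrd1 to the left, Gclc and Osgin1 at the top, and Nqo1, Hmox1 and Srxn1 probe 3 near the centre.

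The wider pathway was read from lists of NRF2 regulators, relatives of the members, and genes of glutathione, thioredoxin, NADPH supply, haem and iron, and conjugation and export, 72 genes besides the members, of which 68 were on the array. In the muscle pair 1 of 60 measured genes was 2-fold higher (1.67%) and 0 were lower, with a median of 0.09. In the liver pair 6 of 63 were higher (9.52%) and 1 lower (1.59%), and the median was 0.04. The shares of higher genes were below the background of 3.9% in muscle and near that of 8.27% in liver. Those of lower genes were below the backgrounds of 1.88% in muscle and 6.01% in liver.

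Among the regulators, Nfe2l2 itself read 12.54 and 11.91 in muscle (-0.63) and 12.40 and 12.60 in liver (0.20). Keap1, its inhibitor, differed by -0.04 and 0.20, and Cul3, the scaffold of the ligase, by -0.33 and 0.13. Maff, a small MAF partner, differed by 0.95 in muscle and was 1.51 higher in liver, the one regulator past 2-fold. Mafg differed by 0.81 and -0.34, and Mafk by 0.47 and 0.39. Bach1, the competing repressor, differed by 0.21 and 0.98, and Sqstm1, an autophagy receptor that sequesters KEAP1, by 0.10 and 0.78. Regulators other than Maff stayed short of 2-fold in both pairs.

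Partners of the members within their own pathways gave mixed values. Gclm, the modifier subunit that forms an enzyme with the Gclc product, differed by 0.20 in muscle and 0.27 in liver, where Gclc differed by 1.77. Ggt1, which breaks down glutathione outside the cell, differed by 0.91 and 0.99. Gsr, which regenerates reduced glutathione, differed by -0.18 and 0.54, and Gss, which completes its synthesis, by -0.34 and -0.33. Slc7a11, the cystine importer, was the 1 gene of the wider lists past 2-fold in muscle, at 1.01, while its 2 dimmer probes gave 0.13 and -0.21. Prdx1, a peroxiredoxin that sulfiredoxin repairs, differed by -0.03 in muscle, and the mitochondrial Prdx3 by 0.88 in muscle and 1.27 in liver. Txnip, which binds and restrains thioredoxin and is induced by glucose, differed by -0.01 and was 1.10 higher in liver. Txnrd2, the mitochondrial relative of Txnrd1, differed by 0.02 and Txnrd3 by 0.16 in muscle, where Txnrd1 was at -1.77.

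Downstream enzymes and stores were mixed as well. The haem and iron genes had 0 of 7 past 2-fold in either pair, with Blvrb, a biliverdin reductase, at -0.01 and -0.17, and the ferritin chains Fth1 (0.16 and 0.06) and Ftl1 (-0.08 and 0.09) near 0. Of the NADPH genes, 0 of 5 passed 2-fold in either pair, and their median was -0.37 in muscle and -0.31 in liver. Of 23 conjugation and export genes measured in liver, Gstt1, a glutathione transferase, was 1.71 higher, and the export pumps Abcc2 and Abcc4 were 1.30 and 1.12 higher, while Mgst2 was 1.12 lower on the log2 scale (-1.12). Abcc2 and Abcc4 are also pumps of the kidney tubule, whose markers were higher in this pair. In muscle 0 of 21 passed 2-fold. Antioxidant enzymes of most cells (Sod2, Sod3, Cat, Gpx1 and Gpx3) gave 0 of 5 in both pairs. Outside the pathway, 4 of 14 ATF4 and heat shock genes were 2-fold higher and 1 was lower in muscle, where 3.9% and 1.88% of all measured genes were. In liver 3 of 13 were higher and 0 lower, against 8.27% and 6.01%. Atf3, Hspa1b and Dnajb1 were among the higher genes in both pairs, and Chac1, an ATF4 target that degrades glutathione, was the lower one in muscle (-1.33).

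**Figure D3:**
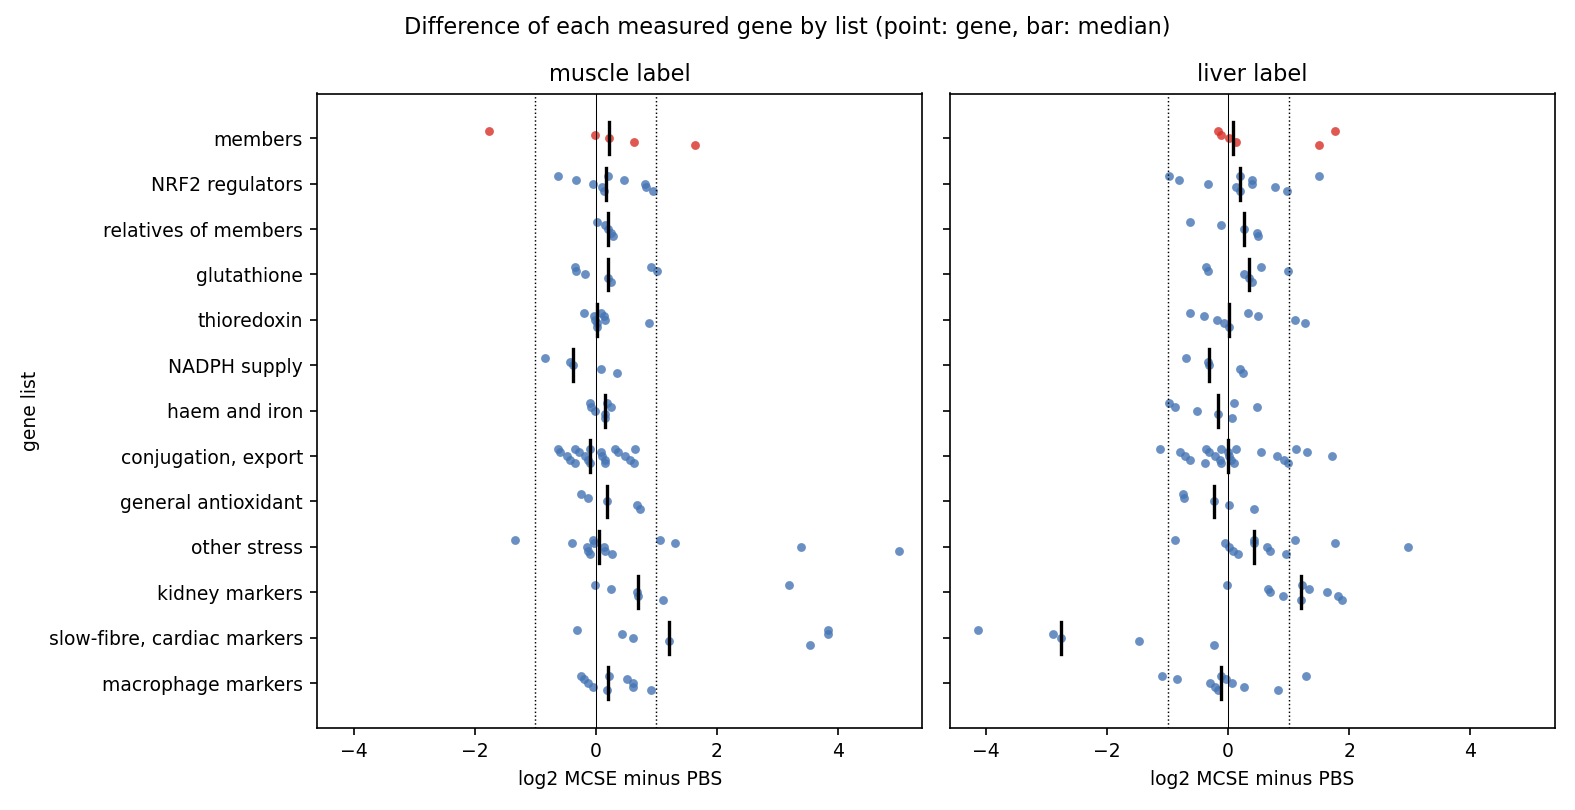
Log2 MCSE minus PBS (x axis) of each measured gene, by its brightest probe, in the muscle pair (left) and the liver pair (right), by gene list (y axis). Points are genes, bars the list medians, and dotted lines mark 2-fold. The member medians are 0.22 and 0.07, the medians of the other NRF2 lists run from -0.37 to 0.20 in muscle and from -0.31 to 0.34 in liver, the kidney markers lie at 0.69 and 1.21, and the slow-fibre and cardiac markers at 1.21 and -2.77.

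The tissue labels were compared next, with the PBS and MCSE arrays of a label as its 2 samples, so that the spread within a label holds any effect of MCSE and the p-values measure only the spread between these arrays. With limma, 4255 of 16456 probes (25.9%) had an adjusted p under 0.05 and a difference of at least 2-fold, 10.6% higher and 15.3% lower in muscle. Of the 8 member probes, 2 passed, a share near the background. Hmox1 was lower in muscle by 1.04 ± 0.26 (SE, log2 muscle minus liver -1.04; limma adjusted p = 0.0352), with 10.82 and 10.80 on the muscle and 11.90 and 11.79 on the liver arrays. Srxn1 probe 3 was 1.94 ± 0.31 higher in muscle (adjusted p = 0.011, limma), with 10.47 and 10.87 against 8.50 and 8.95.

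Both calls depended on which arrays entered the fit. With all 6 arrays the adjusted p from limma was 0.631 for Hmox1 and 0.535 for Srxn1 probe 3. For Hmox1 it was 0.204 without the PBS muscle array and 0.237 without the MCSE muscle array, and without the PBS liver array the difference was -0.98, just under 2-fold. For Srxn1 probe 3 it was 0.0516 without the PBS muscle array and 0.0876 without the MCSE muscle array.

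The 2 brighter Srxn1 probes were higher in muscle by 0.78 ± 0.55 (adjusted p = 0.311, limma) and 1.28 ± 0.45 (0.0833), and did not pass. Without the MCSE muscle array their differences were -0.04 for probe 1 and 0.65 for probe 2. Gclc gave -1.43 ± 0.58 (adjusted p = 0.114, limma), without the PBS liver array -2.31 (0.00989), and without the MCSE liver array -0.55 (0.156). It passed the filter on dim probes through its liver arrays alone. Osgin1 (0.39 ± 0.55), Txnrd1 (0.39 ± 0.58) and Nqo1 (-0.14 ± 0.26) had adjusted p-values from limma of 0.612, 0.638 and 0.719. For Osgin1, Txnrd1 and Srxn1 probe 1 the arrays of the 2 labels overlapped. The other 5 probes did not overlap, as was the case for 71.1% of all probes tested.

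**Figure D4:**
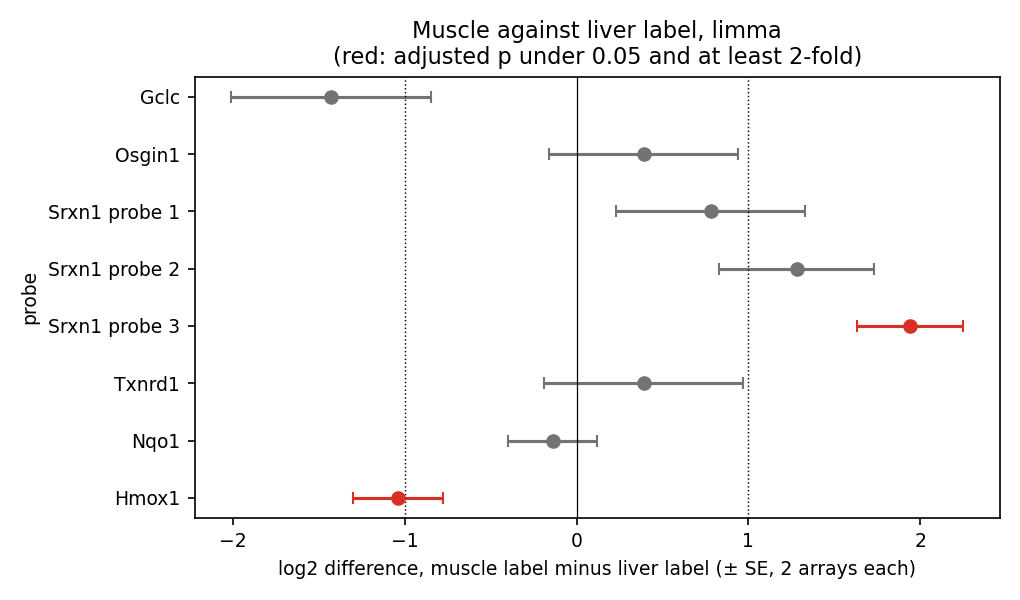
Fitted log2 difference, muscle label minus liver label (x axis), of each member probe (y axis), with its SE from limma as bars and 2 arrays per label. Red marks an adjusted p under 0.05 with at least 2-fold, and dotted lines mark 2-fold. Srxn1 probe 3 (1.94) and Hmox1 (-1.04) passed. The 3 Srxn1 probes all lie on the muscle side, but probe 1 gave -0.04 without the MCSE muscle array.

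In the same fit, 24 of 62 tested genes of the wider pathway were lower and 5 were higher in muscle than in liver, where 15.3% and 10.6% of all probes were. Their median was -0.87 against 0.03 over all probes. All 6 arrays in the fit gave 0 and 0, and the fits without the PBS or the MCSE muscle array gave 9 lower and 0 higher each. Without the MCSE liver array 3 were higher, and without the filter on dim probes 17 were lower and 2 higher. Gclm was lower by 1.87 ± 0.27 (limma log2 -1.87, adjusted p = 0.00878), and Blvra, the main biliverdin reductase downstream of haem oxygenase, by 3.08 ± 0.39 (-3.08, limma adjusted p = 0.00618). Pgd, of the pentose phosphate pathway, was lower by 2.85 ± 0.33 (-2.85, limma adjusted p = 0.00499). Regulators made up 4 of the 5 genes higher in muscle: Bach1 (2.01 ± 0.39, limma adjusted p = 0.0184), Mafg (1.28 ± 0.36, 0.0498), Cul3 (1.23 ± 0.28, 0.027) and Keap1 (1.10 ± 0.26, 0.0316). The fifth was Slc7a11 (1.52 ± 0.41, limma adjusted p = 0.0434). Its 2 dimmer probes read 8.28 and 8.41 in muscle against 8.33 and 8.14 in liver, and 8.64 and 8.44 against 8.59 and 8.51. The dimmer Bach1 probe read 8.54 and 8.06 against 8.19 and 8.25. These probes were under 8.95 throughout and showed no such difference. The dimmer Cul3 probe was higher in muscle, at 11.77 and 11.73 against 9.36 and 9.75. Nfe2l2 did not pass (-0.27 ± 0.32, limma adjusted p = 0.548). On the liver arrays 10 of 10 kidney and 5 of 6 adipocyte markers were higher as well, and their part in these differences was not tested.

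The genes with the pattern most like each member over the 6 arrays were found by the smallest root mean square difference in centred log2 intensity, among 13863 genes. Dnajb4, a heat shock cochaperone gene, was nearest to Srxn1 at 0.22, and Mapkapk2 followed at 0.32. Scpep1 (0.13) and Grb14 (0.15) were nearest to Gclc, and St7l (0.15) and Pou4f1 (0.17) to Osgin1. Nearest to Txnrd1 were Smyd4 (0.23) and Ctbs (0.26), to Nqo1 Csnk2a2 (0.07) and Fars2 (0.09), and to Hmox1 Ilvbl (0.04) and Atpbd1b (0.05). The order includes the array labelled PBS adipose, and it is a description over these 6 arrays.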

How the data were processed

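Total RNA was amplified, labelled with Cy5 and hybridised to 1-colour mouse arrays, per the labels' protocols. The deposited values are intensities that the authors had normalized, not log-transformed (29922 probes, 6 columns). The submitters' processing notes name limma, with no version or role; background correction, normalization method and genome build are not given in the sources used here. All columns had a median log2 intensity of 8.95, and their sorted values differed by at most 0.038 from the median of the arrays, so the deposited scaling was kept. Such scaling assumes 1 common distribution and stretches a weak array. No detection calls were used, so depth is unknown; precision is limited by how few arrays there were.

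Probes were named through the platform annotation (21020 with 1 symbol, 8902 with none, 0 with several), and list symbols also through RefSeq synonyms. G6pdx, Gsta1, Gsta2, Ugt1a6a, Sod1 and Gpx4 of the lists were not matched. An intensity under 214.2, the 5th percentile, was set to that floor before log2. A gene was represented by its brightest probe, and every member probe is shown. Differences are log2 MCSE minus PBS, counted from 2-fold on. For the tissue labels, limma 3.58.1 (lmFit, eBayes; R 4.3.3) was fitted to the 4 muscle and liver arrays, over probes at or above the median on at least 2 of them, with Benjamini-Hochberg adjustment over all 16456 probes (2 residual and 3.8 prior degrees of freedom). The fit was tested on simulated data. The adipose labels were left out of this fit.

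The members and gene lists were chosen with earlier results of these data known. Named genes were all member probes, genes of the pathway lists by value, and of the conjugation, antioxidant and stress lists those past 2-fold, defining genes of the marker lists, and up to the 3 genes nearest to each member in pattern. The exact promoter sequence was singled out after it was seen. Alternatives covered quantile normalization, centring, a lowess trend, 32 added before log2, no floor, the mean over probes, other filters on dim probes, a 1.5-fold threshold, all 6 arrays, treatment as a term, eBayes with trend, and each array left out. Python 3.11.15, numpy 2.4.6, pandas 2.3.3, statsmodels 0.14.6 and matplotlib 3.10.9 were used.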

Additional observations from a re-analysis of the deposited data

Results flagged for a closer look

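Results of 3 member probes had opposite signs in the muscle and liver labels. Srxn1 probe 1 was 1.64 higher with MCSE in muscle and at -0.17 in liver, and Srxn1 probe 2 was 1.26 higher and at -0.02. Txnrd1 was at -1.77 in muscle and 0.13 in liver. The liver values were all within the SD per probe, and with 1 array per group the difference between the labels was not tested.

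The arrays labelled adipose were kept out of the main comparisons between MCSE and PBS, where they were given by level. They entered the ranking of like patterns and the alternative fit with all 6 arrays, and their differences are given in this paragraph. The values that follow are differences between the MCSE and the PBS array of this label. The share of all genes past 2-fold was not counted for this pair, so no count of members is read from it. Gclc was at least 3.32 higher on the log2 scale, its PBS value being at the lower limit. Osgin1 was 2.14 higher, Srxn1 probe 1 was 2.06 higher, Nqo1 1.48 and Hmox1 1.37. Txnrd1 was at -0.56. On the same PBS array the median log2 intensity of 18 proteasome genes, which every cell uses, was 8.92, against 12.83 on the MCSE adipose array and 12.92 to 13.27 on the muscle and liver arrays. The part of this in the member differences was not tested.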

How the results depend on the processing

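Of 82 recomputed member differences with MCSE, 0 changed sign from a value past 2-fold and 81 moved by less than the SD per probe. The exception was Srxn1 in muscle, at 1.10 as the mean of its 3 probes in place of 1.64. The counts of members past 2-fold were the same under every alternative except the 1.5-fold threshold, which gave 2 members higher in muscle in place of 1. The wider list had 9 genes higher in liver in place of 6 with centring or the lowess trend, and 0 in muscle in place of 1 with 32 added.

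The comparison of tissue labels was less stable. It gave 2139 probes without the filter on dim probes, 49 with all 6 arrays (0 of them lower in muscle), and 1037 to 5418 with 1 array left out, where the lone array of a label is assumed to vary like the others. With treatment as a term, which pairs the arrays of a treatment (replicate block), 5730 probes passed, Gclc reached an adjusted p from limma of 0.0277 and Srxn1 probe 2 of 0.0264. No paired analysis was possible because the labels carry no replicate numbers, beyond this treatment block. Of 80 recomputed tissue differences of member probes, 7 lost and 3 gained the call, and 0 changed sign with a call in either fit. Some members without a call did change sign (log2 muscle minus liver). Osgin1 went from 0.39 to -0.37 without the PBS liver array, and Txnrd1 from 0.39 to -0.50 without the PBS muscle array. Srxn1 probe 1 went from 0.78 to -0.04 without the MCSE muscle array.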
